A study of Mus musculus with 14 samples.

Results

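The genes described here are 10 genes by which natural killer (NK) cells and other cytotoxic lymphocytes are recognised, read in splenocyte RNA of mice with and without a working Sting gene. They are the receptor genes Ncr1, Klrb1c, Klrk1, Klrd1 and Il2rb, the transcription factor gene Eomes, and the cytotoxicity genes Prf1, Gzma, Gzmb and Nkg7. They were found as the array probes whose transcript accession belongs to one of these symbols in the RefSeq table, which gave 14 probes, 10 genes of the 24908 genes tested. Each mouse gave 1 Agilent one-colour array, 14 in all. WT mice (n = 7) were compared with Sting gt/gt mice (n = 7). The latter carry the golden ticket allele of Sting that was made by chemical mutagenesis in the C57BL/6 background. The methods do not name the strain of the WT mice. All mice had received chicken collagen type II (CII) in complete Freund's adjuvant (CFA) 2 weeks before, so there was no unimmunized group among these arrays. The methods give 10 to 14 weeks as the age at induction. The WT mice were bought from an animal center and the Sting gt/gt mice came from another laboratory, and the methods do not call them littermates. The RNA came from whole splenocytes, not from sorted NK cells.

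NK cells kill infected or stressed cells without prior immunization. Their activating and inhibitory receptors are weighed against each other, and when activation wins, granules holding perforin and granzymes are released onto the target. The cytokines IL-15 and IL-2, read through the receptor chain made from Il2rb, keep NK cells alive and prime them, and the T-box factor Eomes is needed for conventional NK cells to mature. Activated CD8 T cells use the same granule proteins, so Prf1, Gzma, Gzmb, Nkg7, Il2rb, Klrk1 and Klrd1 are shared with them. STING, the sensor of cyclic dinucleotides, drives type I interferon, a known activator of NK cells.

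RefSeq promoters (GRCm38.p6, 250 bases before and 50 after the transcript start) are shown for 4 genes, because the 8 genes that moved together between mice and the other 2, Prf1 and Nkg7, are contrasted in the results. Gzma and Klrb1c stand for the first and Prf1 and Nkg7 for the others. Capitals mark matches on either strand to the core of the T-box motif (AGGTGT), the RUNX motif (TGTGGT), the ETS motif (CGGAAG) and the STAT motif (TTCNNNGAA).
Gzma, chr13:113100932-113101231, minus strand: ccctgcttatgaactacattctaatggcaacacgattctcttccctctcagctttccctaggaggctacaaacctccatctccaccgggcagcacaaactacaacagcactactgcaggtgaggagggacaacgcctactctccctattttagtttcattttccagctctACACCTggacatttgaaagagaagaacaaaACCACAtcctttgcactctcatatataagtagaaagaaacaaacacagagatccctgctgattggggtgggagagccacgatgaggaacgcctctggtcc
Klrb1c, chr6:128788592-128788891, minus strand: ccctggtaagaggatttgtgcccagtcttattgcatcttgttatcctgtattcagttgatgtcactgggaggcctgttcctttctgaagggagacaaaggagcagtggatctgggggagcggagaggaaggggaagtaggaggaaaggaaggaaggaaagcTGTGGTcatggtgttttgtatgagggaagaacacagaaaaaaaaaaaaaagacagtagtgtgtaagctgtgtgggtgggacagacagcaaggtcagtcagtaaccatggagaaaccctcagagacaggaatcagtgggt
Prf1, chr10:61297586-61297885, plus strand: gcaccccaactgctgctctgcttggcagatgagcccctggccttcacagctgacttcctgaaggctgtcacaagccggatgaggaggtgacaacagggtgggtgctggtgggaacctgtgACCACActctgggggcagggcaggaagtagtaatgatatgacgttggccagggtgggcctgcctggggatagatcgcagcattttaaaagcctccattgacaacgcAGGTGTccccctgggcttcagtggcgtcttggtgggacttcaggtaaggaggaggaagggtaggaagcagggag
Nkg7, chr7:43436888-43437187, plus strand: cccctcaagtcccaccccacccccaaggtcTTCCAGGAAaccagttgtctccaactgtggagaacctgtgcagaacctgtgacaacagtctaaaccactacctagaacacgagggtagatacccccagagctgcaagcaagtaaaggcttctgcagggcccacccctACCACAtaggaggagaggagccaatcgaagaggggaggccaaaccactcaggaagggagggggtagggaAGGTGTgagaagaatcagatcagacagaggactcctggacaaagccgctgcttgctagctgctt
The RUNX motif was in the promoters of 7 of the 8 genes with an entry, Eomes being the exception, and in 16.8% of all 32851 promoters of this length. The T-box core was in those of Prf1, Gzma and Nkg7 (13.7% of all promoters), and its longer form AGGTGTGA, which contains the core, was in that of Nkg7 alone among these (1.28% of all promoters). The STAT motif was in those of Gzmb and Nkg7 (8.30% of all promoters). The ETS motif, searched only as CGGAAG, was in none of the 8 (16.9% of all promoters), and its other forms were not searched. These matches are letters in a window, and the motifs were chosen with the values known. Klrd1 and Il2rb had no entry.

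Levels are log2 processed signals with each array's 75th percentile set to 0, so a level of 1 is a signal 2 times that percentile. Of the 14 probes, 13 were well above background on all 14 arrays, and the second Eomes probe was well above background on none. The arrays differed little in brightness (75th percentile 562 to 766) and in probes well above background (30781 to 34400), and they correlated at 0.962 to 0.993. They were scanned on 2 days, replicates 1 to 3 of both genotypes on the first and replicates 4 to 7 on the second, and limma found 38.8% of all genes to differ between these days after adjustment. The slides of scan day 2 held 1 genotype each, so slide and genotype cannot be told apart there. WT replicate 4 carried high pancreas marker signals (summed level 954, against 12.8 to 22.8 on the other arrays). Of 15 NK cell markers, which include the 10 genes described, 13 were well above background on all arrays, as were all 8 B cell and all 7 CD8 T cell markers, so detection does not show which cells the signal came from. RNA of Sting1 itself, whose golden ticket change lies in the protein, had a log2 fold change of 0.04 (SE 0.10, limma), so its level did not separate the genotypes.

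Over all 14 arrays none of the 10 genes passed the study's threshold, an unadjusted p under 0.05 by limma, between Sting gt/gt and WT mice. The methods' test also passed none. Of these genes 9 lay higher and 1 lower in Sting gt/gt, with a median log2 fold change of 0.09, beside 0.02 over all genes, of which 3.48% passed that threshold. Their adjusted p was 0.9998 by limma. The count of higher genes rested on Sting gt/gt replicate 7, without which 4 were higher and 6 lower, with a median of -0.01. Leaving out any other array left 6 to 10 of them higher, the fewest when WT replicate 3 was dropped, and on unscaled arrays 8 were higher (median 0.04). With scan day as a term again none passed, with 7.27% of all genes passing.

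**Figure D1:**
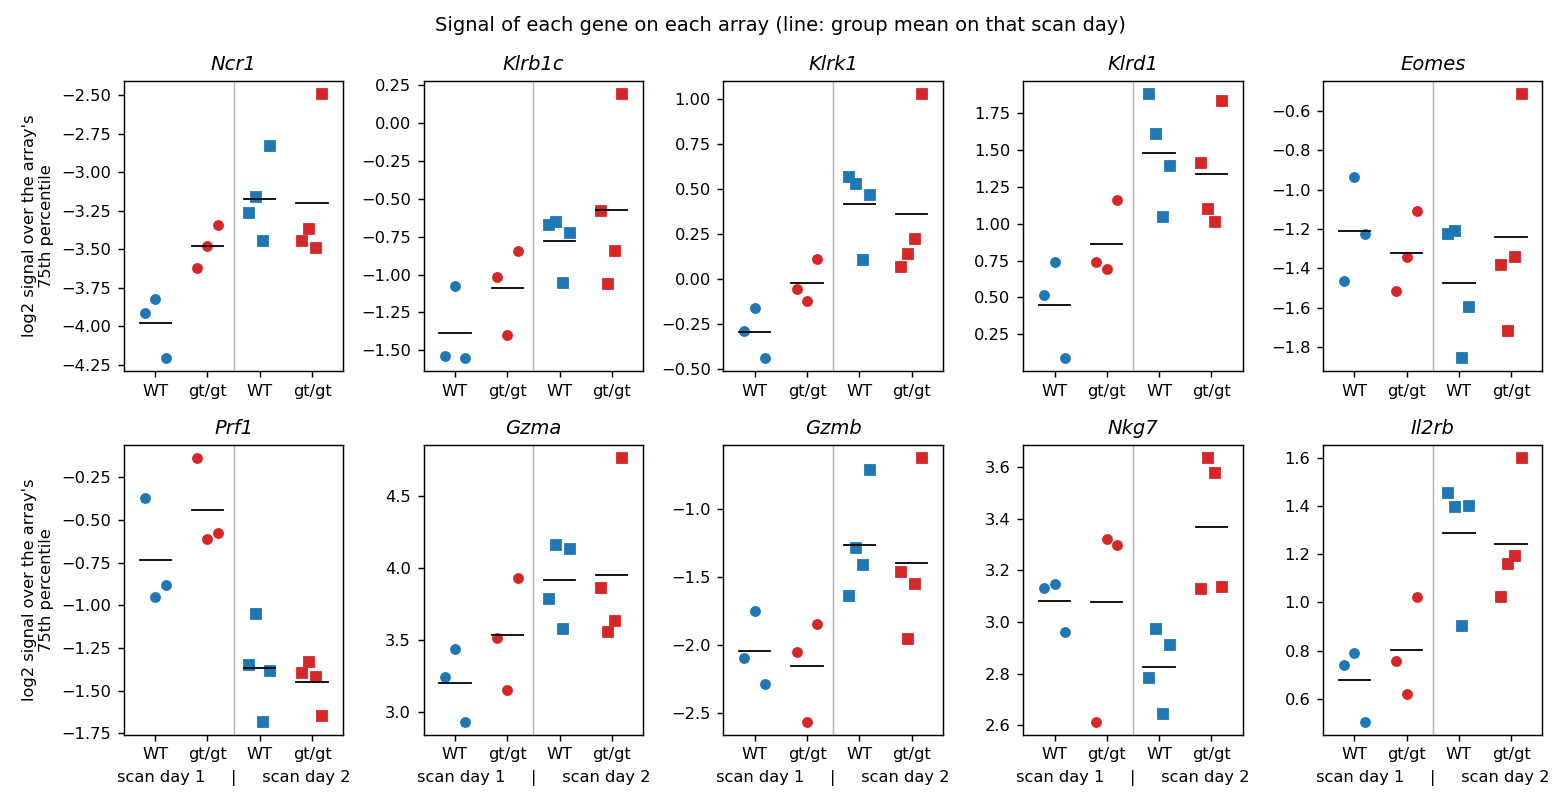
Log2 signal over the array's 75th percentile (vertical axis) of each of the 10 genes on each of the 14 arrays, by genotype and scan day (circles day 1, squares day 2, lines the means). Sting gt/gt replicate 7 is the highest array for 7 of the genes, and for most genes scan day separates the arrays more than genotype does.

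Among the receptors, Ncr1 encodes NKp46, an activating receptor found almost solely on NK cells and related innate lymphoid cells. Its level lay between -4.21 and -2.83 in WT, with a median of -3.45, and between -3.62 and -2.49 in Sting gt/gt, with a median of -3.45. The groups overlapped, with a log2 fold change of 0.20 (SE 0.22, n = 7 per group, exact permutation p = 0.407).
Klrb1c encodes NK1.1, the surface antigen by which NK cells are stained in C57BL/6 mice. It lay between -1.55 and -0.65 in WT, with a median of -1.05, and between -1.40 and 0.19 in Sting gt/gt, with a median of -0.85, a log2 fold change of 0.24 (SE 0.22, exact permutation p = 0.341). Without Sting gt/gt replicate 7 the log2 fold change was 0.08 for Klrb1c and 0.06 for Ncr1. In a bulk sample such as this, a change in the number of NK cells and a change in RNA per NK cell cannot be told apart. The other Klrb1c probes gave log2 fold changes of 0.02 (SE 0.22) and 0.29 (SE 0.24), both with the same sign.
Klrk1 encodes NKG2D, the activating receptor for ligands that stressed cells display. Its level lay between -0.44 and 0.57 in WT, with a median of 0.11, and between -0.12 and 1.03 in Sting gt/gt, with a median of 0.11, a log2 fold change of 0.09 (SE 0.20, exact permutation p = 0.695). Klrd1 encodes CD94, the partner chain of the NKG2 receptors for Qa-1. It lay between 0.09 and 1.88 in WT, with a median of 1.04, and between 0.69 and 1.83 in Sting gt/gt, with a median of 1.1, with a log2 fold change of 0.10 (SE 0.26, exact permutation p = 0.727). For both genes the groups overlapped over most of their range.
Il2rb lay between 0.50 and 1.46 in WT, with a median of 0.90, and between 0.62 and 1.60 in Sting gt/gt, with a median of 1.02, a log2 fold change of 0.03 (SE 0.18, exact permutation p = 0.884). With no scaling between arrays it was -0.03. Its second probe gave 0.11 (SE 0.18). Within scan days the probes took opposite signs. The second gave -0.04 against 0.12 in replicates 1 to 3, and 0.22 against -0.045 in replicates 4 to 7. Eomes, the transcription factor, lay between -1.85 and -0.94 in WT, with a median of -1.23, and between -1.72 and -0.52 in Sting gt/gt, with a median of -1.34, a log2 fold change of 0.08 (SE 0.18, exact permutation p = 0.669).

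Of the cytotoxicity genes, Gzma and Gzmb encode the granzymes, serine proteases that enter the target cell. Gzma lay between 2.93 and 4.16 in WT, with a median of 3.58, and between 3.15 and 4.76 in Sting gt/gt, with a median of 3.63, a log2 fold change of 0.16 (SE 0.24, exact permutation p = 0.547). Gzmb was the only one of the 10 genes with a lower mean in Sting gt/gt. It lay between -2.29 and -0.72 in WT, with a median of -1.64, and between -2.56 and -0.63 in Sting gt/gt, with a median of -1.84, with a log2 fold change of -0.12 (SE 0.28, exact permutation p = 0.686).
Prf1 encodes perforin, which opens the target membrane. It lay between -1.68 and -0.37 in WT, with a median of -1.05, and between -1.65 and -0.13 in Sting gt/gt, with a median of -1.33, a log2 fold change of 0.08 (SE 0.25, exact permutation p = 0.769).
Nkg7 encodes a membrane protein of cytotoxic granules that takes part in their release. It lay between 2.64 and 3.15 in WT, with a median of 2.96, and between 2.61 and 3.64 in Sting gt/gt, with a median of 3.30, and 6 of the 7 Sting gt/gt arrays lay above the WT median. The mean in Sting gt/gt was 124% of that in WT, a log2 fold change of 0.31 (SE 0.15), the largest of the 10. Its exact permutation p was 0.0600, and 0.0757 when arrays were permuted within scan days. The call was close to the threshold. Nkg7 passed it without Sting gt/gt replicate 1 (log2 fold change 0.41, SE 0.12, unadjusted p = 0.00369 and adjusted p = 0.457 by limma), without WT replicate 1 or WT replicate 2, and in the deposited log2 table. It did not with the replicate number as a block (SE 0.15, unadjusted p = 0.0764 by limma), and with slide as a random block its log2 fold change was 0.13 (SE 0.17). Only the 5 arrays of scan day 1 whose 2 slides held both genotypes enter a fit with slide as a fixed block, which gave -0.15 (SE 0.23).

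The fits within scan days, each with arrays of both genotypes, gave different genes. In replicates 1 to 3, Ncr1 was higher in Sting gt/gt and was the only one of the 10 to pass (3.86% of all genes did). Its levels were -3.91, -3.82 and -4.21 in WT and -3.62, -3.48 and -3.34 in Sting gt/gt, so the groups did not overlap. Before scaling the signals did overlap, at 31.8 to 50.8 in WT and 50.5 to 66.3 in Sting gt/gt. The log2 fold change was 0.50 (SE 0.16, unadjusted p = 0.0155, adjusted p = 0.9997 by limma), and the exact permutation p of 0.100 was the smallest that 3 against 3 arrays allow. Ncr1 no longer passed without WT replicate 3 (log2 fold change 0.39) or without Sting gt/gt replicate 3 (0.43), and Klrd1 passed beside it without WT replicate 2. Klrk1 was the other gene whose groups did not overlap, at -0.29, -0.16 and -0.44 in WT and -0.06, -0.12 and 0.11 in Sting gt/gt (log2 fold change 0.28, SE 0.14), where 9.23% of all genes did not overlap. Its signals before scaling overlapped too, at 433 to 642 in WT and 517 to 727 in Sting gt/gt. The median log2 fold change of the 10 genes was 0.28 on that day, 7 of them higher, beside 0.02 for all genes. The B cell markers were also mostly higher in Sting gt/gt on that day (7 of 8, 1 of them past the threshold, median log2 fold change 0.25), and their part in the result was not tested.

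In replicates 4 to 7, Nkg7 was higher in Sting gt/gt and was the only one to pass, on a day when 23.3% of all genes did. Its levels were 2.78, 2.97, 2.64 and 2.91 in WT and 3.13, 3.64, 3.58 and 3.13 in Sting gt/gt, with no overlap, as for 14.7% of all genes. Before scaling the signals did overlap, at 4140 to 5769 in WT and 5704 to 8488 in Sting gt/gt. The log2 fold change was 0.54 (SE 0.15, unadjusted p = 0.00557, adjusted p = 0.0867 by limma), and the exact permutation p of 0.0286 was the smallest that 4 against 4 arrays allow. Leaving out any one array of that day left it past the threshold. As the slides of that day held 1 genotype each, slide and genotype cannot be told apart in this difference. The median log2 fold change of the 10 genes was -0.04, 6 of them lower, while all genes had 0.02. Among the lower genes was Il2rb (-0.045), whose second probe gave 0.22 (SE 0.20). On the same day the B cell markers were lower in Sting gt/gt (8 of 8, 6 of them past the threshold, median log2 fold change -0.49), and the neutrophil markers were higher (9 of 9, 2 past it, median 0.33). Of the plasma cell markers 4 of 6 passed as higher (2 after adjustment, median 0.44), of the mast cell and basophil markers 3 of 7 as higher (median 0.38), and of the erythroid markers 5 of 8 as lower (median -0.34). Whether this has a part in the Nkg7 result was not tested. Over all 14 arrays no gene of the 10 had groups that did not overlap, and 0.0442% of all genes did.

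The genotype differences of both days were set against each other for each gene. None of the 10 passed, while 18.0% of all genes did. Nkg7 came nearest, with a log2 difference between the days of 0.54 (SE 0.26, unadjusted p = 0.0577, adjusted p = 0.296 by limma), as its log2 fold change was 0.00 in replicates 1 to 3. Its levels there were 3.13, 3.15 and 2.96 in WT and 2.61, 3.32 and 3.30 in Sting gt/gt. The value of 0.00 thus rests on Sting gt/gt replicate 1, the lowest of these arrays. Without Sting gt/gt replicate 7, however, 4 genes passed, Ncr1 (-0.76), Klrk1 (-0.55), Klrd1 (-0.72) and Nkg7 (0.62). In that fit, which was chosen after seeing the data, 20.9% of all genes passed. The differences of the first 3 then had opposite signs on the days, with Ncr1 at 0.50 on scan day 1 and -0.26 on scan day 2, Klrk1 at 0.28 and -0.27, and Klrd1 at 0.42 and -0.31, while Nkg7 was at 0.00 and 0.62. Other single arrays each let 1 gene pass, Prf1 without WT replicate 1, Klrd1 without WT replicate 6 and Nkg7 without Sting gt/gt replicate 2, 3 or 4.

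**Figure D2:**
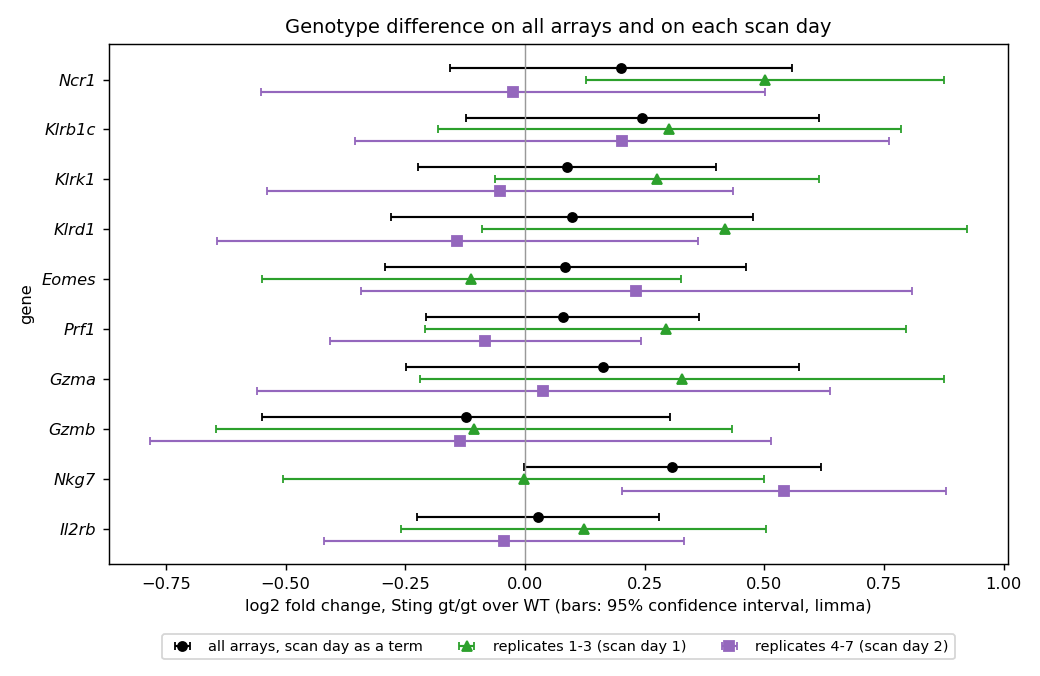
Log2 fold change of Sting gt/gt over WT (horizontal axis, bars the 95% confidence interval by limma) of the 10 genes on all arrays with scan day as a term, in replicates 1 to 3 and in replicates 4 to 7. Only the intervals of Ncr1 in replicates 1 to 3 (0.50) and Nkg7 in replicates 4 to 7 (0.54) leave out 0.

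In the scaled scanner signals the difference between scan days was larger than that between genotypes for 9 of the 10 genes, all but Nkg7. For Eomes the sizes were close (-0.09 between days and 0.08 between genotypes). The share of all genes for which this held is not reported here. Of the 10, 8 had an adjusted p under 0.05 for the scan day by limma, where 38.8% of all genes did. On scan day 2, 7 were higher, as 17.1% of all genes were, by between 0.53 (Il2rb) and 0.77 (Gzmb) on the log2 scale. Prf1 was lower on scan day 2 by 0.82 (SE 0.13, adjusted p = 0.000276), with the levels of scan day 1 (-0.95 to -0.13) all above those of scan day 2 (-1.68 to -1.05). Nkg7 (0.02) and Eomes (-0.09) hardly moved. One Klrb1c probe went against the other probes of that gene, with WT means of -3.33 on scan day 1 and -3.69 on scan day 2. In WT alone 7 genes were higher on scan day 2 and Prf1 was lower at an adjusted p under 0.05, where 27.5% of all genes passed, and in Sting gt/gt alone Prf1 passed while the other 9 did not, where 22.0% of all genes passed.
The deposited log2 table held these shifts only in part. In it the 10 genes differed between scan days by -0.14 (Nkg7) to 0.34 (Klrb1c), all but Nkg7 being higher on scan day 2. Prf1, 0.82 lower in the scanner signals, was 0.18 higher. In the table the genotype difference was larger in size than that between days for Ncr1 (0.188 against 0.159) and Gzmb (-0.112 against 0.109), besides Nkg7. The median size of the difference over all genes was 0.27 in the scanner signals and 0.07 in the table. The 95th percentile was 1.09 and 0.28, so Klrb1c lay beyond it in the table. The methods do not name the step that brought the days closer together.

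**Figure D3:**
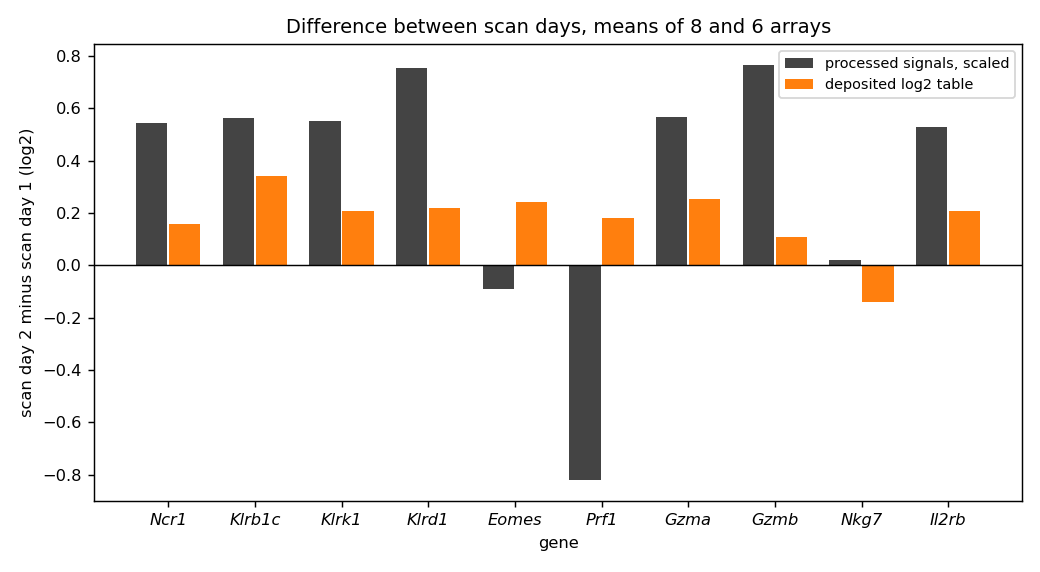
Scan day 2 minus scan day 1 (vertical axis, log2 units, means of 8 and 6 arrays) of the 10 genes in the scaled scanner signals and in the deposited log2 table. Prf1 is -0.82 in the former and 0.18 in the latter.

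Within genotype and scan day, 8 of the genes moved together from mouse to mouse. Deviations from the 4 genotype and scan day means were correlated over the 14 arrays, for all 45 pairs of genes. Among Ncr1, Klrb1c, Klrk1, Klrd1, Eomes, Gzma, Gzmb and Il2rb, Pearson's r was between 0.52 and 0.93 (28 pairs, median 0.80). Klrb1c and Gzma gave the largest, r = 0.93 and Spearman's rho = 0.92 (exact permutation p = 0.000338 and 0.000241, adjusted over the 45 pairs 0.00651 for r). Klrk1 and Il2rb gave r = 0.90 and rho = 0.95. By exact permutation, 21 of the 45 pairs passed an adjusted p under 0.05 for r and 20 for rho, all among these 8 genes, a grouping that was chosen after the values were seen. All arrays share their scaling, and Sting gt/gt replicate 7 was the highest array for 7 of the genes, with a mean deviation of the 8 genes of 0.66. Without that array the r of the 28 pairs lay between 0.19 and 0.97 (median 0.67), and without the 2 arrays farthest from the median, between 0.09 and 0.91 (median 0.70). The 28 pairs were positive on scan day 1 (6 arrays, median r = 0.84) and on scan day 2 (8 arrays, median r = 0.84), and in the deposited table (median r = 0.81).
Over the 14 arrays the pairs with Prf1 and Nkg7 had lower values. Prf1 and Nkg7 are among the 7 genes with 1 probe, so whether their lower values rest on the probe was not tested. The other Klrb1c probes had deviations correlating with those of the probe read at 0.93 and 0.80, and the second Il2rb probe at 0.75. The second Eomes probe, well above background on none of the arrays, gave 0.11. The 9 pairs with Prf1 had r between -0.26 and 0.13 and the 9 with Nkg7 between -0.35 and 0.14, and none passed. These values too changed without Sting gt/gt replicate 7, to between -0.14 and 0.39 for Prf1 and between -0.15 and 0.54 for Nkg7, the highest being Nkg7 with Ncr1. The pairs with Nkg7 lay between -0.56 and 0.68 on scan day 1 and between -0.54 and 0.63 on scan day 2, and those with Prf1 between -0.84 and 0.05 and between -0.34 and 0.63. On Sting gt/gt replicate 7, where the 8 genes averaged 0.66 above their group mean, Prf1 lay 0.20 and Nkg7 0.23 below theirs.

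**Figure D4:**
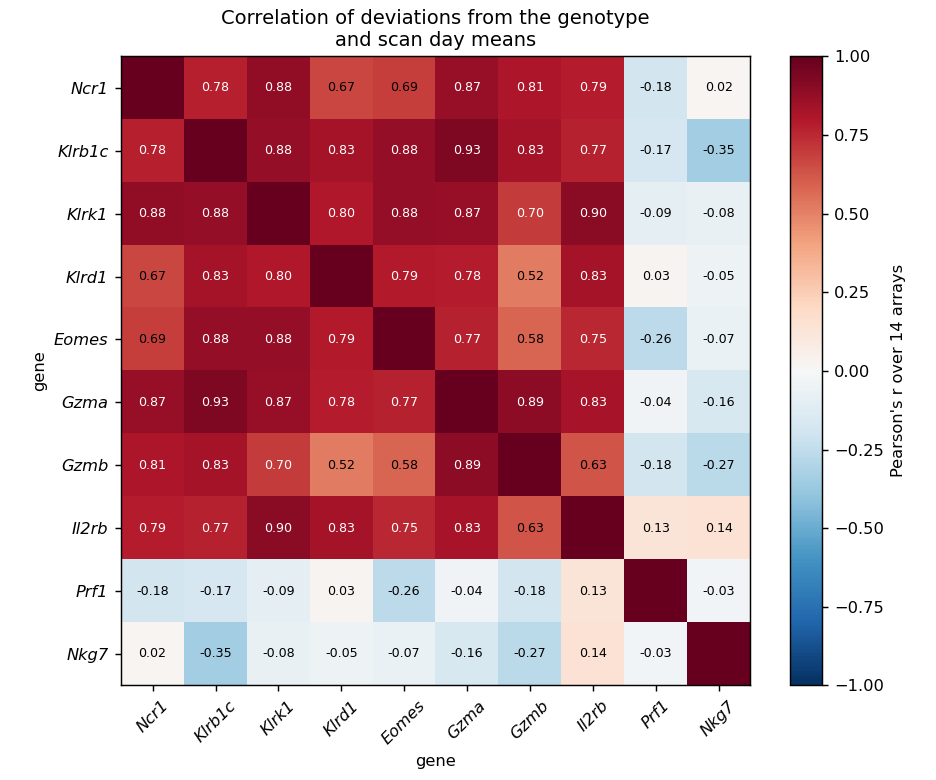
Pearson's r (colour and number) of the deviations from genotype and scan day means over 14 arrays for each pair of the 10 genes (both axes). The 8 genes from Ncr1 to Il2rb form a block of 0.52 to 0.93, and the pairs with Prf1 and Nkg7 run from -0.35 to 0.14.

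Over 14712 other genes with a symbol, those with the highest mean r with the 10 genes included Tecpr1 (0.68), Dsel (0.68), Ccl5, Tmcc3, Zc3h12c, Klra16, Epn2, Sipa1l1 and Gpr65 (0.66), among them Ccl5, a chemokine of cytotoxic lymphocytes, and Klra16, of the Ly49 family. The median over all these genes was -0.09. Of the other NK receptor genes tested (26), the mean r with the 8 genes had a median of 0.58, against -0.13 over all genes. Klre1 (0.85), Klra7 (0.85), Klra4 (0.85) and Klrg1 (0.82) were the highest of these and Klra17 (0.07) and Cd226 (0.15) the lowest. All these values include Sting gt/gt replicate 7, and values without it are not reported here. The 8 genes had been grouped by their correlations on the same arrays, so this likeness is not a separate reading.

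The wider NK pathway was read from 9 lists of 148 genes, of which 140 had a probe and 122 were tested. Over all arrays 92 lay higher and 30 lower in Sting gt/gt (median log2 fold change 0.07), with 1 gene past the threshold in each direction, 1.64% of those tested. Clec2d, the ligand of an inhibitory Klrb1 receptor, was higher, with levels from 0.97 to 1.39 in WT and from 1.04 to 1.73 in Sting gt/gt (log2 fold change 0.26, SE 0.12). Sh2d2a, a T and NK cell adaptor, was lower, with levels from -1.04 to -0.34 in WT and from -1.32 to -0.69 in Sting gt/gt (log2 fold change -0.29, SE 0.13). With scan day as a term Klra9, a receptor of the Ly49 family, passed too (0.30, SE 0.13). None of these passed after adjustment.
Among NK receptors, 22 of the 26 tested were higher and 0 passed (median 0.15), with Klra5 at 0.45 (SE 0.32) and Klra4 at 0.38 (SE 0.26) the largest. Of the signalling adaptors 11 of 13 were higher (median 0.07), with Fcgr3, the NK cell Fc receptor, at 0.25 (SE 0.23). Of the transcription factors 7 of 13 were higher (median 0.00), with Nfil3 at 0.19 (SE 0.17) and Tox at 0.16 (SE 0.19). Of the granule components 7 of 9 tested were higher (median 0.09), with Lamp2 at 0.16 (SE 0.15) and Ctsw at 0.14 (SE 0.17).
All 13 genes of granule release were higher by 0.00 to 0.17 (median 0.07), with Rab27a at 0.17 (SE 0.24) and Stxbp2 at 0.15 (SE 0.09), both needed to bring granules to the membrane, and none passed. Of the effector cytokines 7 of 10 were higher (median 0.15), with Xcl1 at 0.33 (SE 0.20) and Tnf at 0.25 (SE 0.24). Of the genes of cytokine input 11 of 16 were higher (median 0.05), Il12a at -0.28 (SE 0.15) and Il18 at 0.19 (SE 0.15). Of the homing genes 7 of 10 were higher (median 0.06), with Itgal at 0.16 (SE 0.16) and Cx3cr1 at 0.15 (SE 0.11). Of the ligands 7 of 12 were higher (median 0.01), with Clec2i at -0.26 (SE 0.18). For comparison, 13565 of all 24908 genes were higher. These counts rest on the scaling. With no scaling between arrays 10052 of all genes were higher and 14856 lower (median log2 fold change -0.04), and of the 122 genes 64 were higher and 58 lower, 17 of 26 among the receptors and 7 of 13 among the genes of granule release. Without Sting gt/gt replicate 7, 71 of the 122 were higher.

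**Figure D5:**
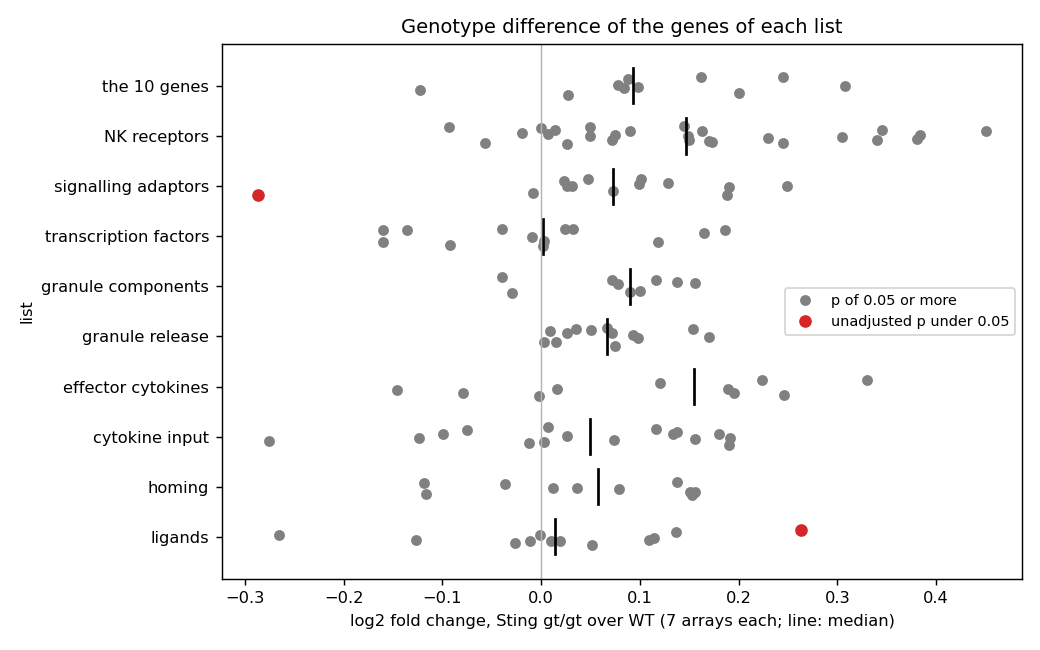
Log2 fold change of Sting gt/gt over WT (horizontal axis, 7 arrays each, lines the medians) of the tested genes of each list (vertical axis). With this scaling most lists centre a little above 0, and Sh2d2a (-0.29) and Clec2d (0.26) are the 2 genes under an unadjusted p of 0.05.

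The days again gave different genes. In replicates 1 to 3, 7 of the 122 passed (5.74%, beside 3.86% of all genes), all higher in Sting gt/gt, namely Klra4 (0.60), Klra5 (0.89), Klra7 (0.45), Klrb1b (0.73), Tnf (0.72), Xcl1 (0.48) and Il18 (0.43). In replicates 4 to 7, 7 passed as higher and 5 as lower (9.84%, beside 23.3% of all genes). Klra17 (0.39), Stat5b (0.24), Osm (0.51), Cx3cr1 (0.34), Itgal (0.42), Raet1e (0.96) and Tox (0.56) were higher, and Il12a (-0.51), Itgam (-0.38), Clec2i (-0.60), Sh2d2a (-0.42) and Ikzf3 (-0.27) lower. No gene was in both sets, but passing on a single day does not show a difference between the days. The values of that difference are not reported here for these genes. The summed NK cell markers lay between 21.7 and 38.8 in WT, with a median of 28.4, and between 27.0 and 55.0 in Sting gt/gt, with a median of 34.2, the highest being Sting gt/gt replicate 7. These markers include all the genes described, so the sum is not a separate reading of NK cell content. The summed CD8 T cell markers ran from 14.7 to 24.7 in WT and from 15.9 to 22.2 in Sting gt/gt, and Sting gt/gt replicate 7 was at 17.8. Besides Cd8a and Cd8b1 their list holds Themis, Lat and the Cd3 genes, and Cd3e is also among the CD4 T cell markers. The sum thus does not single out CD8 T cells. The part of either cell type in the results was not tested.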

How the data were processed

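Splenocyte RNA of 14 mice, 7 per genotype, was read on Agilent one-colour arrays. Per the file headers, the intensity values come from Feature Extraction 11.0.1.1 by Agilent. A deposited table gives log2 values, and its normalization is not given in the sources used here. Processed intensities were converted to log2 and scaled by subtracting the 75th percentile of the array. Outlier spots were left out, spots of a probe averaged, and a probe was tested when well above background on at least 7 of 14 arrays. Of 56605 probes 58.3% matched a symbol in RefSeq. A gene was read from its brightest tested probe. The genotypes were compared by limma 3.58.1 (R 4.3.3) at an unadjusted p under 0.05, with Benjamini-Hochberg adjustment over all 24908 genes, and single genes by two-sided exact permutation tests over 3432 ways (1400 within scan days). Deviations of same-numbered arrays correlated at 0.16 to 0.53, and at -0.41 to 0.25 once scan day means were removed, so the numbers pair the samples through the scan day. Other genes were named where they passed the threshold, where they were among the 2 largest of a list, or where they were among the 10 most alike, and the genes called within a day, together with the NK receptors named for their likeness, were named after their values were seen. Alternatives were other scalings, a background correction, the deposited table, other filters, probes and tests, scan day, the replicate number or slide in the model, and each array left out. A gene among the most alike is not reported here. The members and lists were chosen with earlier results of these data known. The number of arrays limits the precision. Scripts were tested on simulated data.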

Additional observations from a re-analysis of the deposited data

Results flagged for a closer look

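For 20 groups of 7 arrays, 2 per gene, the gap between an extreme array and its neighbour was set against the range of the group by Dixon's test at 95%. Chance alone flags about 1 group in 20. In Sting gt/gt, replicate 7 stood apart for Ncr1, with 0.752 of the range between it and the next array. The same array stood apart for Klrk1, at 0.701. It was also the highest Sting gt/gt array for Klrb1c, Klrd1, Eomes, Gzma, Gzmb and Il2rb, where the gap did not pass the limit.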

How the results depend on the processing

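No gene of the 10 passed the threshold over all arrays, and 1 did, Nkg7, under median centring, in the deposited log2 table, with probes well above background on all arrays, with array weights and an intensity trend, and in replicates 4 to 7, while Ncr1 was the 1 that passed in replicates 1 to 3. Leaving out each array gave 0 to 1 called genes. Over all genes, 868 passed, 1928 in the deposited log2 table, 4625 under array weights and a trend, 1812 with scan day as a term, 1416 with the replicate block, 445 with slide as a random block and 5805 in replicates 4 to 7. Leaving out each array gave 496 to 1967 genes, the lowest without Sting gt/gt replicate 6 and the highest without Sting gt/gt replicate 1, with 539 without Sting gt/gt replicate 5. The replicate block changed no call of the 10 genes. By direction, 464 genes were higher and 404 lower, against 149 and 614 with no scaling and 570 and 346 with median centring. With scan day as a term 1 gene, Nkg7, passed in the deposited log2 table, and 0 to 1 passed with each array left out. In replicates 1 to 3, 0 to 2 passed with each array left out, and 1 in replicates 4 to 7. For the difference between scan days 1 gene, Nkg7, passed with median centring, and 0 to 4 passed with each array left out.

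Log2 fold changes that took the opposite sign were those of Ncr1 (-0.025), Klrk1 (-0.053), Klrd1 (-0.14), Prf1 (-0.083) and Il2rb (-0.045) in replicates 4 to 7, of Klrk1 (-0.088), Klrd1 (-0.074), Prf1 (-0.056) and Il2rb (-0.076) with array weights and an intensity trend, of Eomes (-0.025) and Il2rb (-0.0037) with slide as a random block, of Eomes (-0.11) and Nkg7 (-0.0027) in replicates 1 to 3, of Eomes (-0.23) and Nkg7 (-0.15) with slide as a fixed block (chosen after seeing the data, and resting on 5 arrays of 2 slides), of Il2rb (-0.027) with no scaling. With each array left out in turn the log2 fold change ran from 0.063 to 0.32 for Ncr1, from 0.081 to 0.35 for Klrb1c, from -0.051 to 0.16 for Klrk1, from -0.060 to 0.24 for Klrd1, from -0.042 to 0.16 for Eomes, from -0.069 to 0.20 for Prf1, from -0.0033 to 0.27 for Gzma, from -0.31 to 0.024 for Gzmb and from -0.064 to 0.099 for Il2rb. Over 310 values of the 10 genes, 271 kept their sign and side of the threshold. The cause of these changes was not tested. The counts of higher and lower genes under other settings were chosen after seeing the data. So were the fits of single arrays left out within a day, with scan day as a term or for the difference between days. The same holds for the deposited table in these 3 kinds of fit, and for the scalings for the difference between days.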
